A study of Mus musculus with 12 samples.

Results

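Type I interferon antiviral response genes are the genes that cells switch on after interferon-alpha or interferon-beta binds its receptor. Here they are 39 mouse genes chosen by name from the 55401 genes with a deposited value. All 39 were found by symbol, and 38 had a mean of at least 1 TPM (an abundance of transcripts scaled by their length and by the library total) and were tested together with the other genes, 15026 in all. The remaining gene, Ifi44, was listed at 0.0667 to 0.621 TPM and was not tested.

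Type I interferons bind a receptor made of IFNAR1 and IFNAR2, whose kinases JAK1 and TYK2 phosphorylate transcription factors such as STAT2. STAT2 with IRF9 is part of a complex that binds interferon-stimulated response elements near the start sites of target genes. Many of the targets block viruses by binding, cutting or editing viral RNA, by trapping particles at the membrane or by tagging proteins with ISG15, and many cells keep a low level of these genes on without infection.

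The samples were MLL-AF9 cells, an acute myeloid leukemia made by transducing mouse bone marrow progenitors with the fusion gene MLL-AF9 together with GFP, and passed more than 10 times through non-irradiated mice. The same leukemia cells were transplanted into 3 kinds of female host aged 8 to 12 weeks: WT C57BL/6 mice with a normal immune system, Rag2-/- mice without mature B and T lymphocytes, and NSG mice without B, T and NK cells. All cells carried the same fusion gene and none of the host's deletions was engineered into them, and each host gave 4 libraries, labelled as biological replicates. Cells were taken when a mouse was moribund, so the host and the time spent in it cannot be told apart. RNA came from 3000000 GFP+ cells of the bone marrow of moribund mice, was selected with poly-T beads and was sequenced from both ends. All cells derive from 1 leukemia that was transplanted many times, so the libraries show the spread among hosts of 1 leukemia, and where the labels do not say more than biological replicate, p-values measure the spread between these samples. In such bulk RNA, fewer cells of a type and less RNA per cell cannot be told apart.

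Each library summed to 1000000 TPM, and the spacing of its lowest values gave an estimated depth of 16.1 to 43.0 times 1000000 counted reads. Leukemia genes (Hoxa9, Hoxa10, Meis1, Spi1 and 4 others) summed to 1426 to 1648 TPM in all libraries. Libraries correlated with each other at Pearson r of 0.958 to 0.981 over genes, and none held the same values as another. Genes of neutrophils stood out by host, with a sum over 10 genes of 209 to 336 TPM in WT, 677 to 2118 TPM in Rag2-/- and 323 to 353 TPM in NSG libraries, and 9 of the 10 were called higher in Rag2-/- than in WT libraries. A sum over 10 macrophage genes was 91.9 to 99.5 TPM in WT, 103 to 120 TPM in Rag2-/- and 55.7 to 113 TPM in NSG libraries, where NSG replicate 3 was lowest. Of its 7 tested genes, C1qc was called higher in Rag2-/- than in WT libraries and Axl higher than in NSG libraries. Igkc, an antibody light chain gene of B cells, was called lower in Rag2-/- than in WT libraries (-2.75). Genes of T and NK cells summed to at most 9.85 TPM in every library. Among them, Ncr1 was at 0.108 to 0.531 TPM in Rag2-/- libraries and at 0 in all WT and NSG libraries. Gzma was at 0.624 to 2.39 TPM in Rag2-/-, at 0 in WT and at 0 to 1.67 TPM in NSG libraries. These values rest on at most 6 and 24 estimated reads in a library. Nkg7 and Cd3d had lower means in Rag2-/- than in WT or NSG libraries. The part of these cell types in the results given here was not tested.

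Start-site sequences were examined first, since they are where the complex with STAT2 and IRF9 acts. RefSeq promoter windows (250 bases before to 50 bases after a start site, build GRCm38.p6) were matched for 29 of the 39 genes. The letters GAAA, any 2 bases and GAAA, the core of an interferon-stimulated response element read on either strand, were found in 13 of the 29 genes (44.8%), and in 3.99% of all 27025 genes with a window. The letters TTC, any 3 bases and GAA, the core bound by STAT dimers, were found in 8 of the 29 (27.6%) and in 9.55% of all genes. A match describes the letters and shows no binding. The following stretches are shown for the genes described with values in every library that hold the first motif before the start. They run 5′ to 3′ on the strand of the gene, end at or before the start site, and have the matching letters in capitals. Read on the opposite strand, the motif is TTTC, any 2 bases and TTTC.
Ifit1: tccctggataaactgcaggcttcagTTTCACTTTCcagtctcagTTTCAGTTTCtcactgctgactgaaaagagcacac
Ifit3: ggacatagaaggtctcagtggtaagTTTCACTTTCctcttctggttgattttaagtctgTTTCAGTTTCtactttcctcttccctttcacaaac
Ifit3b: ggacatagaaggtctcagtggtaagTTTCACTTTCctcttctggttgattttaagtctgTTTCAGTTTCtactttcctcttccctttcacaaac
Isg15: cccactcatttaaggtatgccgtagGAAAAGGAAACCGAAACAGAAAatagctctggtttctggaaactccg
Oas1a: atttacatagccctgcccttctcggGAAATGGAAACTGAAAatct
Oas3: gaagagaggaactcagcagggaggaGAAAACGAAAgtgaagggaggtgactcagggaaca
Bst2: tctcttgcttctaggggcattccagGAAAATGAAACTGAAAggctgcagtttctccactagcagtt
Rsad2: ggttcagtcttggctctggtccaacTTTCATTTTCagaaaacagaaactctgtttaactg
Stat2: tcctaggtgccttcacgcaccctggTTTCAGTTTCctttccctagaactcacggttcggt
Trim30a: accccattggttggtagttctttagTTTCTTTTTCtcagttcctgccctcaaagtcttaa
These lie at chr19:34640760-34640838, chr19:34583348-34583441 and chr19:34607744-34607837 on the plus strand for the Ifit genes, at chr10:128270251-128270310 on the plus strand for Stat2, and on the minus strand at chr4:156200850-156200921 for Isg15, chr5:120907526-120907570 for Oas1a, chr5:120777700-120777759 for Oas3, chr8:71537562-71537627 for Bst2, chr12:26456538-26456597 for Rsad2 and chr7:104465195-104465254 for Trim30a. Isg15 held 3 overlapping matches, Ifit1, Ifit3, Ifit3b, Oas1a and Bst2 held 2 each, and the other 4 held 1. The match nearest to a start ended 4 bases before it, in Oas1a, and the farthest 212 bases before it, in Stat2. The printed stretches of Ifit3 and Ifit3b are the same letter for letter. Irf7, Oasl2, Samhd1 and Adar were matched to windows without the motif, which says only that these letters are not in those windows. No window was matched for Usp18, Oas2, Mx1, Zbp1, Parp14 and Ifi27l2a.

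The level of the whole group ranged more among libraries of one host than among the means of the hosts. The largest range within a host exceeded that of the host means in 94.9% of all genes tested too, so this order is not particular to the group. The mean log2(TPM + 1) over the 38 genes was 5.54, 5.87, 5.70 and 5.91 in WT replicates 1 to 4. It was 5.30, 5.72, 5.41 and 5.85 in Rag2-/- replicates 1 to 4, and 5.81, 5.99, 5.34 and 5.74 in NSG replicates 1 to 4. The hosts overlapped throughout: the highest Rag2-/- library lay above 2 WT libraries and 3 NSG libraries, and the lowest NSG library lay below 3 of the Rag2-/- libraries. The means of the hosts were 5.76 ± 0.17 for WT, 5.57 ± 0.26 for Rag2-/- and 5.72 ± 0.28 for NSG (SD, n = 4).

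**Figure D1:**
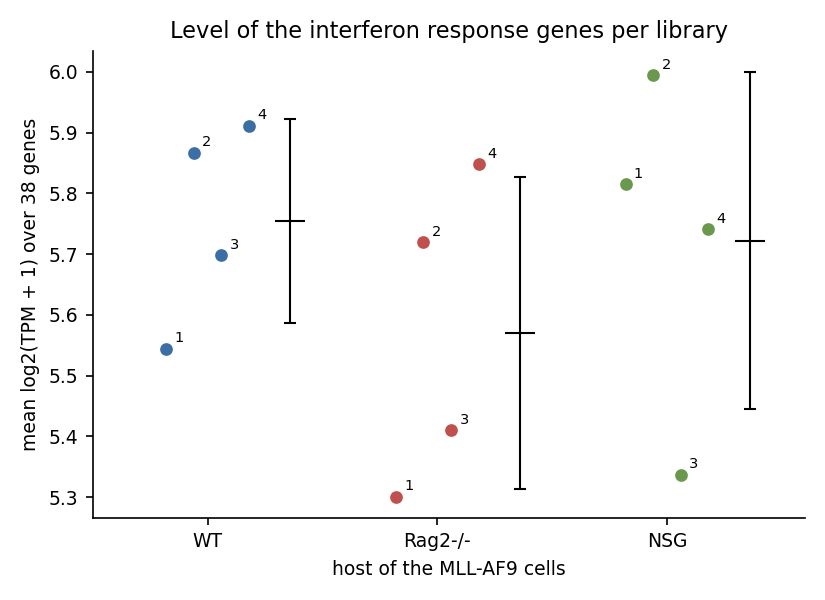
Mean log2(TPM + 1) over the 38 genes in each library by host (points, numbered by replicate), with the mean and SD of each host (n = 4). The 3 hosts overlap, and replicate 1 of WT, replicate 1 of Rag2-/- and replicate 3 of NSG lie lowest in their hosts at 5.54, 5.30 and 5.34.

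Differences between hosts were tested with limma on log2(TPM + 1) in a single fit over the 12 libraries, and a call required an adjusted p-value (Benjamini-Hochberg, over all 15026 genes) below 0.05 together with a log2 fold change beyond 0.5. Of the 38 genes, 0 were called between Rag2-/- and WT libraries, where 1.47% of all genes tested were called in either direction. At an unadjusted p under 0.05 stood 8 genes, where 20.9% of all genes did, and 7 of them were lower in Rag2-/- libraries, where 8.66% of all genes were. In the same comparison 34 of the 38 log2 fold changes lay below 0, as did 45.5% of all genes, and their median was -0.17 against 0.024 over all genes. The 38 genes varied together within hosts, with a median Pearson r between pairs of 0.75, beside 0.016 over all genes. Their directions are therefore not 38 separate observations. Voom, run on reads estimated from the TPM, called 1 of the 38 genes, Isg15. The median ranged from -0.25 to -0.089 when each library was left out in turn. It came to -0.24 without WT replicate 1, -0.25 without Rag2-/- replicate 2, -0.24 without Rag2-/- replicate 4, and to -0.11 without WT replicate 4 and -0.089 without Rag2-/- replicate 1.

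Between Rag2-/- and NSG libraries, limma again called 0 of the 38 genes, against 0.213% of all genes tested. Of them, 33 lay below 0 (46.6% of all genes), with a median of -0.12 against 0.013 over all genes. At an unadjusted p under 0.05, 2 genes were lower, beside 4.84% of all genes, and none was higher, and voom called 0. This comparison uses the same Rag2-/- libraries as the one with WT, so the directions are not separate evidence. The median was -0.26 without NSG replicate 3 and -0.22 without Rag2-/- replicate 4, and fell to -0.047 without Rag2-/- replicate 1 or without NSG replicate 2. Between NSG and WT libraries limma called 0 of the 38 genes and 0% of all genes, with 0 of the 38 at an unadjusted p under 0.05 (9.16% of all genes) and 0 called by voom. There 24 of 38 lay below 0 (48.5% of all genes), and the median of -0.04 turned to 0.096 without NSG replicate 3 and to 0.013 without WT replicate 4.

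**Figure D2:**
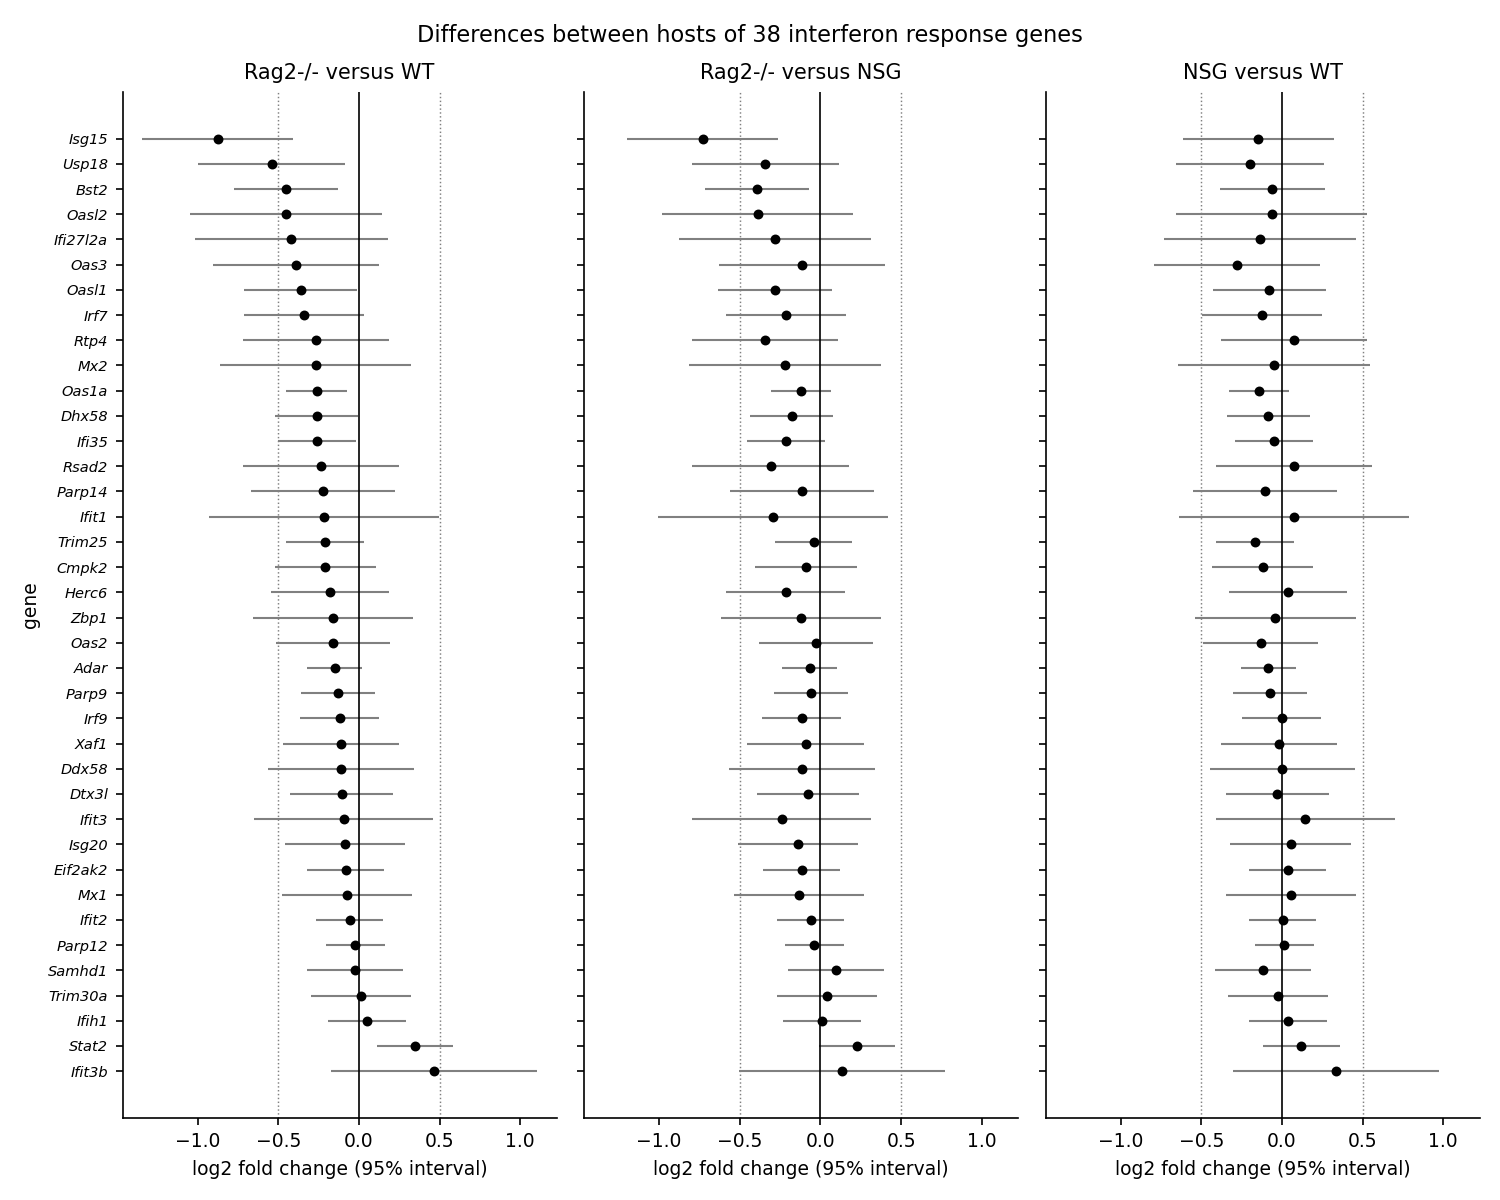
Log2 fold change of each of the 38 genes in 3 comparisons (points) with the 95% interval of the limma fit (lines), in the order of Rag2-/- versus WT. Dotted lines mark the limit of 0.5 in either direction, and Isg15 lies farthest to the left against WT at -0.88.

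ISG15, a ubiquitin-like protein that is attached to other proteins and also secreted, differed most. Isg15 (chr4:156199424-156200818, minus strand) stood at 134, 238, 166 and 157 TPM in WT, at 86.2, 98.3, 65.7 and 129 TPM in Rag2-/- and at 134, 192, 125 and 172 TPM in NSG libraries. All 4 Rag2-/- libraries lay below all WT libraries, and only the highest of them, replicate 4 at 129 TPM, reached into the NSG range. The means were 174 ± 44.9, 94.8 ± 26.5 and 156 ± 31.8 TPM (SD, n = 4). Against WT the log2 fold change was -0.88 (SE 0.22, limma adjusted p = 0.0506), just outside the limit, and against NSG -0.73 (SE 0.22, adjusted p = 0.164). Without a library the difference from WT was between -1.04 and -0.71, with adjusted p from 0.0262 to 0.148 over all settings tried except voom, which gave 0.0255. It was called without Rag2-/- replicate 4 (adjusted p = 0.0262) and without NSG replicate 3 (adjusted p = 0.0400). Isg15 has a pseudogene, AC151275.1, that matches 482 bases of its transcript at 95.2%, and how the authors' counting shared reads between them is not given in the sources used here. The Rag2-/- libraries are also the ones with the higher sum of neutrophil genes, and Rag2-/- replicate 4 had both the lowest such sum in its host (677 TPM) and the highest Isg15, and the part of these cells in the difference was not tested.

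The other genes of the ISG15 system all had log2 fold changes below 0 against WT, and none was called. Usp18, the protease that removes ISG15 and restrains the interferon receptor, was at 24.1, 31.0, 26.5 and 32.0 TPM in WT, at 14.4, 23.7, 14.6 and 26.4 TPM in Rag2-/-, and at 25.7, 29.7, 17.2 and 27.4 TPM in NSG libraries. Rag2-/- replicates 1 and 3 and NSG replicate 3 were the low libraries, while Rag2-/- replicate 4 lay within the WT range and replicate 2 just under it. Its log2 fold change was -0.54 against WT (SE 0.21, limma adjusted p = 0.168), -0.34 against NSG and -0.20 for NSG against WT, the last of which was -0.035 without NSG replicate 3. Herc6, a ligase that attaches ISG15 in mouse cells, ranged from 9.47 to 18.1 TPM over the libraries. Trim25, a ligase that activates the RNA sensor RIG-I, ranged from 96.0 to 151 TPM, and its 4 Rag2-/- libraries (111 to 129 TPM) lay below the WT libraries (133 to 151 TPM) at a log2 fold change of -0.21 (adjusted p = 0.301). Together with Isg15, Oas1a and Ifi35 it is 1 of 4 genes (10.5%) whose Rag2-/- libraries all lay below all WT libraries, beside 6.72% of all genes tested, and none had all Rag2-/- libraries above all WT libraries, beside 10.2%. In either direction these are the 4 of 38 against 16.9% of all genes. None of the 38 was parted in this way between Rag2-/- and NSG or between NSG and WT, where 6.59% and 4.59% of all genes were.

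**Figure D3:**
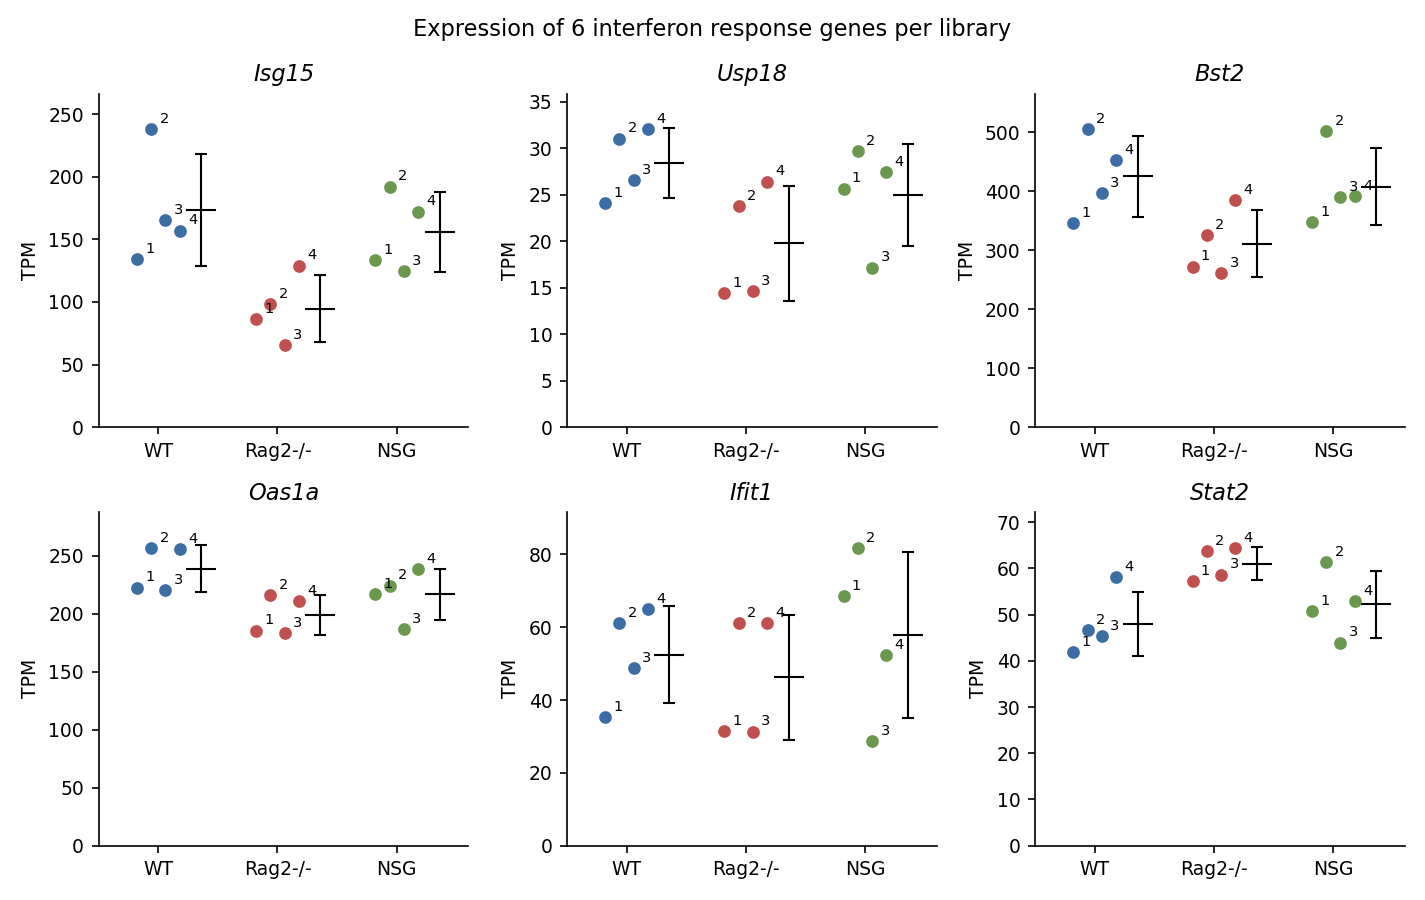
TPM of Isg15, Usp18, Bst2, Oas1a, Ifit1 and Stat2 in each library by host (points, numbered by replicate), with the mean and SD of each host (n = 4). Isg15 and Oas1a are lower in all Rag2-/- than in all WT libraries, and Stat2 is highest on average in Rag2-/- libraries. Ifit1 spreads most within a host on the log2 scale, though not in the TPM plotted.

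The IFIT proteins bind foreign RNA by its 5′ end and stop its translation, and their genes lie within chr19:34550694-34650009. Ifit1 was at 35.2, 61.2, 48.7 and 64.9 TPM in WT, at 31.5, 61.1, 31.3 and 61.0 TPM in Rag2-/-, and at 68.5, 81.8, 28.7 and 52.4 TPM in NSG libraries. Each host held a low and a high library that differed by more than the hosts did. The log2 fold changes of Ifit1 were -0.22 against WT (SE 0.33, limma adjusted p = 0.749) and -0.29 against NSG (adjusted p = 0.779), and the interval against WT ran from -0.93 to 0.50. Ifit3, a partner of IFIT1, repeated this pattern at 12.4, 19.1, 17.3 and 21.2 TPM in WT, 12.3, 22.8, 12.4 and 18.8 TPM in Rag2-/-, and 24.2, 24.1, 11.4 and 19.7 TPM in NSG libraries. Its difference between Rag2-/- and WT was -0.09, within the spread of the libraries, and turned in sign, to at most 0.024, without WT replicate 4, Rag2-/- replicate 1 or Rag2-/- replicate 3. Ifit3b, its close copy, stood at 2.80, 7.14, 4.03 and 2.64 TPM in WT, 3.86, 7.61, 5.52 and 6.53 TPM in Rag2-/-, and 6.66, 6.95, 2.91 and 4.99 TPM in NSG libraries. The transcripts of Ifit3 and Ifit3b match at 97.8% over 1700 bases, so the share of reads given to each is uncertain. Ifit3b had the highest log2 fold change of the 38 genes in Rag2-/- against WT, 0.46 (SE 0.29, adjusted p = 0.395), and in NSG against WT, 0.33 (adjusted p = 0.776). Ifit2 varied little, from 52.0 to 70.6 TPM.

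The 2′-5′-oligoadenylate synthetases sense double-stranded RNA and, by their product, switch on the ribonuclease RNase L. All 6 genes of this group (Oas1a, Oas2, Oas3, Oasl1, Oasl2 and the exonuclease gene Isg20) had log2 fold changes below 0 in Rag2-/- libraries against both other hosts, and none was called. Oas1a, the second most abundant of the 39 genes, was at 222, 257, 220 and 255 TPM in WT, at 185, 216, 183 and 210 TPM in Rag2-/-, and at 217, 224, 187 and 238 TPM in NSG libraries. Its Rag2-/- libraries lay below the WT libraries without overlap, by -0.26 on the log2 scale (SE 0.09, limma adjusted p = 0.112), and overlapped the NSG libraries. Oas1g, an unlisted copy, matches Oas1a at 97.6% over 1861 bases, so this level is also uncertain. Oas2 was at 94.3, 115, 97.1 and 133 TPM in WT, at 77.1, 122, 90.6 and 105 TPM in Rag2-/-, and at 103, 123, 76.9 and 99.3 TPM in NSG libraries. Oas3 was at 24.2, 31.7, 27.6 and 38.1 TPM in WT, at 15.8, 30.9, 19.9 and 27.0 TPM in Rag2-/-, and at 27.7, 29.7, 15.2 and 28.8 TPM in NSG libraries. Both overlapped between all hosts, at -0.16 and -0.39 against WT (adjusted p = 0.619 and 0.372). Oas3 gave -0.28 for NSG against WT (adjusted p = 0.759), and -0.061 without NSG replicate 3, the low library, or -0.17 without WT replicate 4. Oasl2, an OAS-like protein with a ubiquitin-like tail, was at 41.9, 58.2, 52.8 and 64.7 TPM in WT, at 27.0, 41.0, 32.6 and 63.8 TPM in Rag2-/-, and at 57.5, 74.8, 32.0 and 50.3 TPM in NSG libraries. Rag2-/- replicate 4 lay with the high WT libraries, and the other 3 lay below all WT libraries. Its difference was -0.45 against WT (SE 0.27, adjusted p = 0.371) and -0.39 against NSG (adjusted p = 0.604). Oasl1, which restrains translation of Irf7, ranged from 24.1 to 45.8 TPM and Isg20 from 15.6 to 29.4 TPM.

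Mx proteins are GTPases that trap viral particles and Bst2, or tetherin, holds budding virus at the cell surface. Bst2 had the highest mean of the 39 genes (381 TPM), with 346, 505, 397 and 453 TPM in WT, 272, 326, 261 and 385 TPM in Rag2-/-, and 348, 502, 390 and 392 TPM in NSG libraries. Of the Rag2-/- libraries, 3 lay below every library of the other hosts, and replicate 4 lay among them. The log2 fold changes were -0.45 against WT (SE 0.15, limma adjusted p = 0.112) and -0.39 against NSG (SE 0.15, adjusted p = 0.285). Mx1 was at 12.5, 17.0, 15.04 and 15.5 TPM in WT, at 11.1, 15.9, 12.3 and 18.1 TPM in Rag2-/-, and at 17.1, 19.2, 10.5 and 17.0 TPM in NSG libraries. The hosts overlapped, at -0.07 against WT (adjusted p = 0.855), and the value was 0.031 without Rag2-/- replicate 1. Mx2, which shares 843 bases with Mx1 at 95.3%, ranged from 2.69 to 8.48 TPM.

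Rsad2 (viperin), Cmpk2 and Samhd1 alter the nucleotide pool that viruses need: viperin makes a chain terminator, CMPK2 is a nucleotide kinase coded beside it, and SAMHD1 degrades deoxynucleotides. Rsad2 was at 21.4, 32.4, 26.4 and 30.4 TPM in WT, at 18.6, 30.6, 16.9 and 29.3 TPM in Rag2-/-, and at 35.7, 34.7, 19.8 and 28.1 TPM in NSG libraries. The low libraries were again replicates 1 and 3 of Rag2-/- and replicate 3 of NSG, and its neighbour Cmpk2 (47.7 to 74.5 TPM) was lowest in the same 3. Samhd1 was at 43.7, 45.6, 44.8 and 48.8 TPM in WT, at 41.8, 52.3, 41.9 and 44.7 TPM in Rag2-/-, and at 49.3, 50.3, 30.04 and 41.5 TPM in NSG libraries. The log2 fold changes against WT were -0.23 for Rsad2 (limma adjusted p = 0.589), -0.21 for Cmpk2 (adjusted p = 0.439) and -0.02 for Samhd1 (adjusted p = 0.947). The sign of Samhd1 turned against WT without WT replicate 4, Rag2-/- replicate 1 or Rag2-/- replicate 3.

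The sensors of RNA and other nucleic acids were present in all libraries. RIG-I (Ddx58) ranged from 35.7 to 70.8 TPM, MDA5 (Ifih1) from 47.4 to 69.1 TPM, their relative LGP2 (Dhx58) from 47.8 to 74.7 TPM and the kinase PKR (Eif2ak2) from 79.8 to 112 TPM. Zbp1, a sensor of left-handed nucleic acid that can start cell death, was at 32.4, 49.3, 36.3 and 45.6 TPM in WT, at 25.8, 43.4, 30.8 and 48.4 TPM in Rag2-/-, and at 40.6, 57.6, 29.2 and 34.4 TPM in NSG libraries. Adar, which edits double-stranded RNA so that MDA5 does not sense it, was at 69.3, 76.7, 73.1 and 83.0 TPM in WT, at 63.1, 69.7, 65.8 and 73.1 TPM in Rag2-/-, and at 67.7, 74.4, 63.8 and 79.1 TPM in NSG libraries. Zbp1 spread more than its hosts differed, and Adar varied little in any host. Of the 6 sensors, 5 lay below 0 against WT, from -0.26 (Dhx58, limma adjusted p = 0.232) to -0.08 (Eif2ak2), and Ifih1 lay at 0.05 and turned in sign without WT replicate 1 or Rag2-/- replicate 4. Adar was at -0.15 against WT (SE 0.08, adjusted p = 0.299), with an interval of -0.32 to 0.02. Adar shares 1365 bases of exon with Chrnb2 on the opposite strand, and whether the counting used strand is not given in the sources used here.

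None of the transcription factor genes Stat2, Irf7 and Irf9 was called. Stat2, the partner of IRF9, was at 41.9, 46.6, 45.4 and 58.0 TPM in WT, at 57.2, 63.7, 58.6 and 64.5 TPM in Rag2-/-, and at 50.7, 61.4, 43.9 and 53.0 TPM in NSG libraries. The Rag2-/- libraries lay above the WT libraries except that WT replicate 4 (58.0 TPM) exceeded Rag2-/- replicate 1 (57.2 TPM). The log2 fold change was 0.35 against WT (SE 0.11, limma adjusted p = 0.0988) and 0.23 against NSG (SE 0.11, adjusted p = 0.420), and Stat2 was the only gene of the 38 higher in Rag2-/- libraries at an unadjusted p under 0.05. Irf7, the factor that amplifies interferon production, was at 92.0, 119, 99.8 and 112 TPM in WT, at 64.2, 94.1, 71.5 and 109 TPM in Rag2-/-, and at 85.5, 126, 81.2 and 98.6 TPM in NSG libraries. Its difference was -0.34 against WT (SE 0.17, adjusted p = 0.281) and -0.21 against NSG (adjusted p = 0.657), and the libraries overlapped. Irf9 ranged from 60.7 to 87.5 TPM, at -0.12 against WT.

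PARP9, PARP12 and PARP14 attach ADP-ribose, and DTX3L is the ubiquitin ligase that pairs with PARP9. Parp14 was at 33.7, 41.4, 42.7 and 50.8 TPM in WT, at 31.2, 37.4, 30.5 and 45.4 TPM in Rag2-/-, and at 45.0, 51.2, 24.4 and 39.8 TPM in NSG libraries. NSG replicate 3 was the lowest of all 12, and the difference from WT was -0.22 in Rag2-/- libraries (limma adjusted p = 0.580). Parp9 (47.6 to 66.6 TPM) and Dtx3l (50.8 to 80.9 TPM) share 458 bases of exon on opposite strands. Parp12 stayed between 49.8 and 60.6 TPM, and its ratio of the highest to the lowest library, 1.22, was the smallest of the 38 genes.

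Of the remaining genes, Ifi27l2a, a short interferon-induced transcript, was at 111, 116, 104 and 162 TPM in WT, at 64.6, 77.3, 86.1 and 157 TPM in Rag2-/-, and at 95.6, 179, 99.9 and 86.9 TPM in NSG libraries. In each host 1 library stood well above the other 3 (replicates 4, 4 and 2), and the difference of -0.42 from WT (SE 0.27, limma adjusted p = 0.414) lay within that spread. Trim30a, which dampens innate signalling, was at 157, 178, 177 and 201 TPM in WT, at 158, 183, 173 and 207 TPM in Rag2-/-, and at 201, 214, 128 and 167 TPM in NSG libraries. Its hosts overlapped, with 0.02 against WT (limma adjusted p = 0.965), a sign that turned with median ratio scaling and voom. Rtp4 ranged from 50.5 to 112 TPM, Xaf1, which binds the apoptosis inhibitor XIAP, from 22.0 to 41.0 TPM, and Ifi35 from 55.8 to 86.9 TPM. Ifi35 was 1 of the genes without overlap, at 55.8 to 65.5 TPM in Rag2-/- and 66.9 to 80.2 TPM in WT libraries (-0.26, adjusted p = 0.207).

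Libraries of one host differed by more than the host means did. The largest range within a host exceeded the range of the 3 host means in 38 of 38 genes, beside 94.9% of all genes tested, so that this count is close to the background. The sizes differed more: the median range within a host was 0.73 for the 38 genes and 0.51 for all genes on the log2 scale, and the median range of host means was 0.22 and 0.20. The median SD of log2(TPM + 1) over the 4 libraries was 0.17 in WT, 0.27 in Rag2-/- and 0.29 in NSG for the 38 genes, beside 0.13, 0.14 and 0.19 for all genes tested. Genes of like abundance (10672 genes with a mean between 5.14 and 381 TPM) gave 0.11, 0.11 and 0.16. The NSG value of the 38 genes fell to 0.16 without replicate 3. The NSG values for all genes and for genes of like abundance include that replicate, so they are not matched to it. Ifit1 had the widest range within a host, 1.48 on the log2 scale in NSG libraries, while Isg15 had the widest range between hosts, 0.88.

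**Figure D4:**
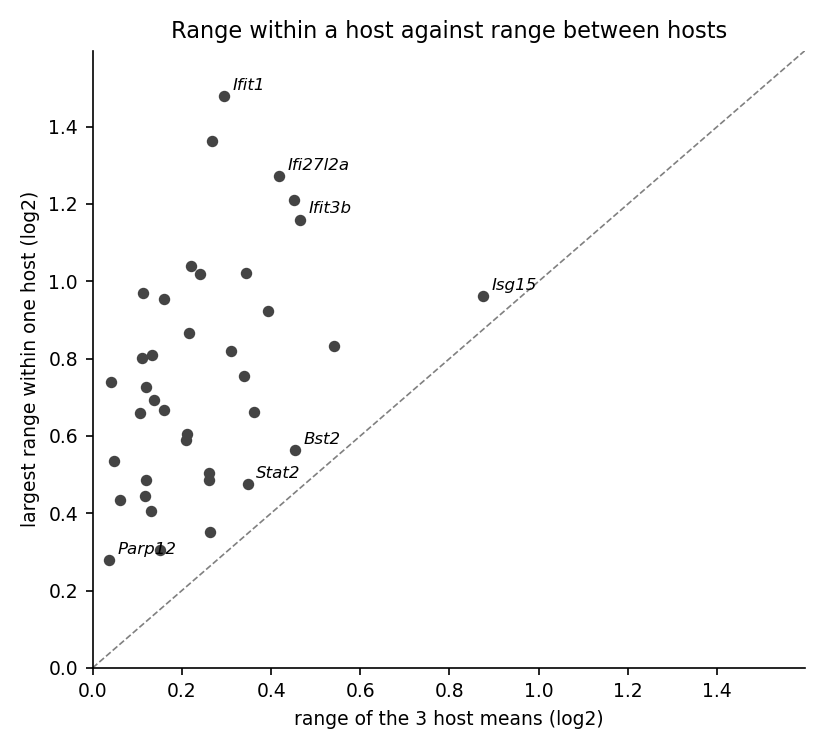
Range of the 3 host means (x axis) against the largest range among the 4 libraries of one host (y axis) for each of the 38 genes, both in log2(TPM + 1). All 38 genes lie above the dashed line of equal ranges, and Isg15 lies farthest to the right.

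Within hosts the genes varied together. WT replicate 1 held the lowest of the 4 WT values in 31 of the 38 genes, Rag2-/- replicate 1 in 27 and NSG replicate 3 in 35, where 27.8%, 25.98% and 36.3% of all genes were lowest in the same libraries. The highest value fell in WT replicate 4 for 24 genes, in Rag2-/- replicate 4 for 26 and in NSG replicate 2 for 26, where 34.3%, 27.8% and 21.6% of all genes were highest. After the mean of each host was subtracted, the median Pearson r between 2 of the genes over the 12 libraries was 0.75, with 698 of 703 pairs above 0, beside 0.016 over all genes. These correlations share libraries and describe them, and the points are not independent. The deviations of the mean level had r = 0.20 with those of the estimated reads.

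The correlation of a gene with the mean of the other 37 was above 0.9 for 20 genes. It was 0.97 for Ifit1, Oasl2 and Mx1 and 0.96 for Usp18, and lowest for Ifi27l2a (0.65) and Parp12 (0.29). Isg15, the gene that differed most between hosts, had 0.71, and Stat2, which differed in the other direction, 0.84. Outside the list, the genes with the most similar deviations were Irgm1 (r = 0.98), a GTPase gene induced by interferons, Slfn5 (0.98), Ms4a6b (0.96), Rnf213 (0.95) and Lonp2 (0.95), named for their rank. Of the 100 genes ranked highest, all with r of at least 0.85, 17 were in a list of 60 other interferon-stimulated genes, 6 in a list of 28 genes of the interferon-gamma response and 1 among 25 upstream genes.

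**Figure D5:**
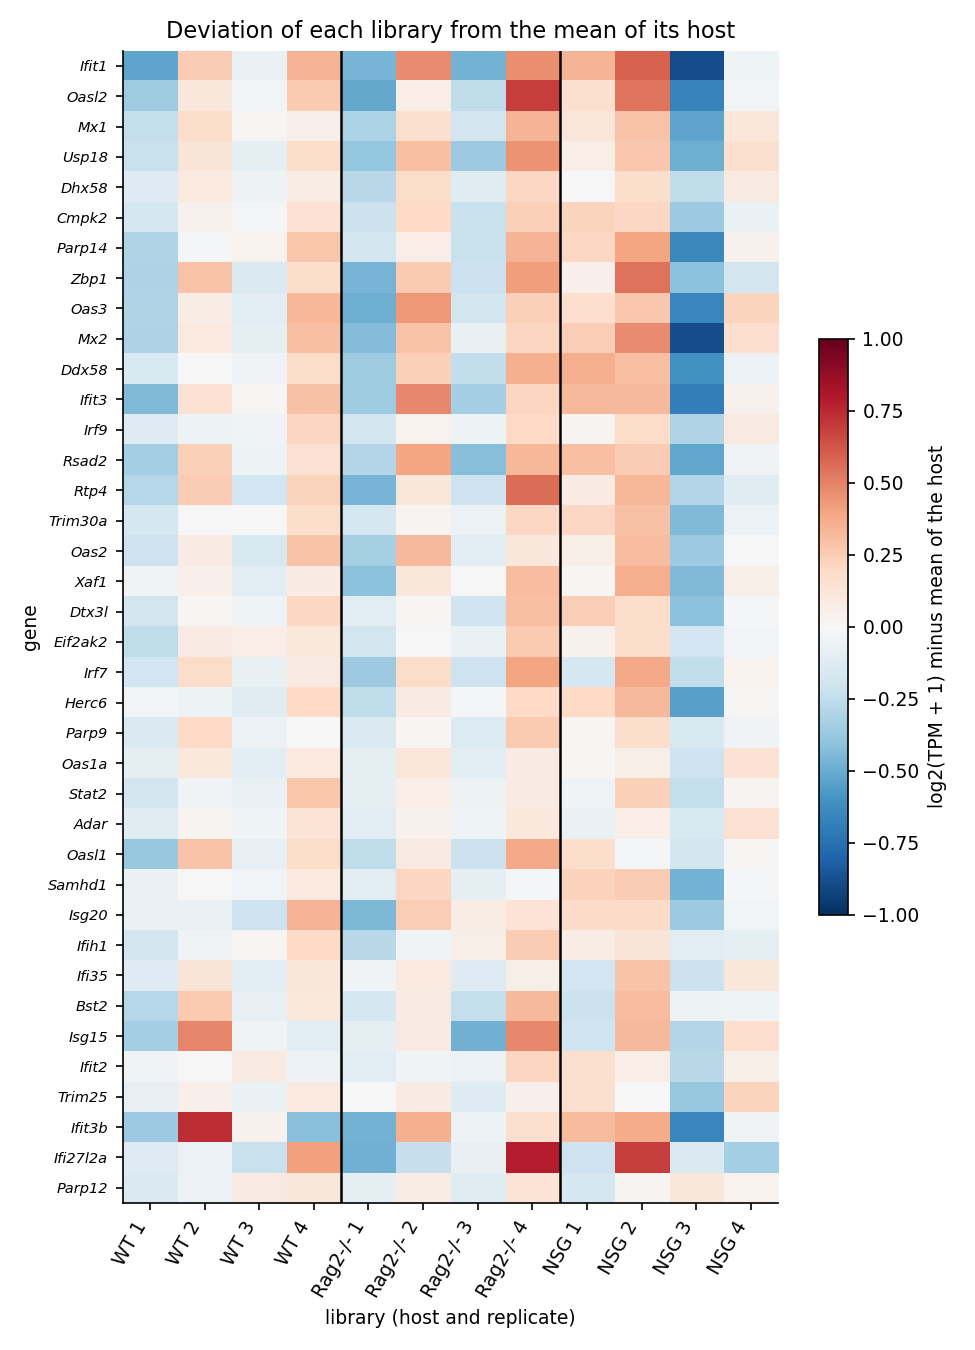
Deviation of log2(TPM + 1) from the mean of the host for the 38 genes (rows, ordered by their correlation with the mean of the others) in the 12 libraries (columns, split by host). WT replicate 1, Rag2-/- replicates 1 and 3 and NSG replicate 3 are blue, or low, in most rows, while the lowest rows, Ifi27l2a and Parp12, depart from the pattern.

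The ligand genes of the pathway were listed at or near 0. Of 18 type I interferon genes, 12 were listed at 0 in every library, Ifnb1 among them, and the highest value was 1.23 TPM (Ifne in Rag2-/- replicate 3), at an estimated 4 reads. The 37 mitochondrial genes are also listed at 0 in every library, so a listed 0 is not read as a lack of expression. The receptor genes were expressed evenly, with Ifnar1 at 69.3 to 88.2 TPM and Ifnar2 at 112 to 132 TPM. The sensors of endosomal nucleic acid Tlr7 and Tlr9 were at 6.48 to 12.6 and 16.5 to 24.1 TPM, and the factors Irf1, Irf3 and Irf8 at 45.7 to 61.4, 54.6 to 67.3 and 52.7 to 86.5 TPM.

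Of the 24 tested genes of the upstream list (receptors, kinases, factors and sensors), 1 was called between Rag2-/- and WT libraries and 16 lay above 0, with a median of 0.11, beside 1.47% of all genes called, 54.5% above 0 and a median of 0.024. At an unadjusted p under 0.05 stood 7 of the 24, where 20.9% of all genes did. The called gene was Irf5, a factor downstream of Toll-like receptors, at 27.1 to 42.1 TPM in Rag2-/- and 19.2 to 22.1 TPM in WT libraries (log2 fold change 0.63, SE 0.13, limma adjusted p = 0.0309). Of 58 tested genes of the other interferon-stimulated list, 1 was called higher and 0 lower, beside 1.47% of all genes called, with a median of -0.09. At an unadjusted p under 0.05 stood 15 of the 58, where 20.9% of all genes did. The called gene of this list was Ifitm6, at 30.6 to 81.0 TPM in Rag2-/- and 14.2 to 21.4 TPM in WT libraries (1.51, SE 0.26, limma adjusted p = 0.0154). Rag2-/- replicate 4 held the lowest value of its host in both genes, as it did for the sum of neutrophil genes, whose part was not tested. Neither list had a gene called between Rag2-/- and NSG or between NSG and WT. The 20 tested genes of the interferon-gamma list had a median of -0.24 against WT, beside 0.024 over all genes. Of them, 16 lay below 0, where 45.5% of all genes did. Limma called 0 of the 20, beside 1.47% of all genes, and 8 stood at an unadjusted p under 0.05, beside 20.9%.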

How the data were processed

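The deposited table holds RNA-seq values of leukemia cells from 3 kinds of host, with 4 libraries of each. Per the methods of the study, the authors mapped reads with HISAT2 (mouse build mm10), took gene counts and turned these into TPM, the deposited unit, for all genes. The counting tool, its use of strand and the gene lengths are not given in the sources used here. Gene IDs were paired with symbols and exon lengths of GENCODE M21 (55141 of 55401), and the 37 mitochondrial genes are listed at 0.

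From the deposited TPM, log2(TPM + 1) was fitted in R 4.3.3 with limma 3.58.1 (one linear model per gene, with an abundance trend in its variance), over all 12 libraries and the 15026 genes whose mean reached 1 TPM, two-sided, with Benjamini-Hochberg adjustment in each comparison. The fit was tested on simulated data. With 200 of 15026 genes changed in Rag2-/- libraries, it called 68% of 2-fold and 93% of 4-fold changes against WT. It also called 3 unchanged genes. Smaller changes were not simulated. Reads were estimated as TPM times exon length at the depth that made low values whole numbers: 98.8% to 99.1% of values under 15 reads came out whole within 0.05 read. Between 65.6% and 70.0% of those were even, as when both mates of a pair are counted, so fragments may be fewer. The members and gene lists were chosen with earlier results of these data known. Values in every library are given for 16 genes fixed by name, for the 3 genes with the largest absolute log2 fold change in each comparison and for the 3 with the highest mean, and others were named by rank or by a call. Fold changes of Trim25, Ifi35, Dhx58, Cmpk2, Irf9, Eif2ak2 and Ifih1 are given outside this rule and were chosen after their values were seen. Alternatives were a pseudocount of 0.1, 2 other filters on low values, quantile normalization, median ratio scaling, no trend, 2 hosts alone, a block for the replicate number, calls without the limit on fold change, and each library left out. Voom on estimated reads, a split of the libraries (Rag2-/- replicates 3 and 4 and NSG replicates 1 and 2 against the rest) as a factor and leaving out the library lowest in the group mean of each host were added after the data were seen. Promoter windows are from RefSeq on GRCm38.p6. Tables and plots were made with pandas 2.3.3, matplotlib 3.10.9, scipy 1.17.1 and numpy 2.4.6 under Python 3.11.15. One gene of the pathway is not reported here.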

Additional observations from a re-analysis of the deposited data

Results flagged for a closer look

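Of 63 sets of 4 libraries examined (20 genes and the mean level of the group in each host), 2 held a library far from the other 3, where chance gives about 1 in 20, or 3.15. Ifi27l2a was highest in NSG replicate 2 at 179 TPM, with a gap to the next library of 0.859 of the range. Oas3 was lowest in NSG replicate 3 at 15.2 TPM, with a gap of 0.856 of the range. Both gaps exceed Dixon's 95% limit for 4 values.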

How the results depend on the processing

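The count of genes called between Rag2-/- and WT was 0 in the main analysis and 1, Isg15 in each case, with at least 1 TPM in every library (adjusted p = 0.0409), median ratio scaling (0.0492), 2 hosts alone (0.0461), the replicate block (0.0324) and voom on estimated reads (0.0255), and between 0 and 1 with each library left out. The counts for the other comparisons were 0 under every setting tried. Over all genes, deviations of same-numbered libraries correlated at -0.091 to 0.032, so the replicate numbers were not taken to pair the samples. Among the 38 genes the block changed no other call. Over all 15026 genes, calls between Rag2-/- and WT went from 172 higher and 49 lower to 127 and 38. Those between Rag2-/- and NSG went from 29 higher and 3 lower to 5 and 0. With the block, genes of the 38 at an unadjusted p under 0.05 went from 8 to 12 against WT and from 2 to 7 between Rag2-/- and NSG. Over all 15026 genes they went from 3146 to 2930 and from 1888 to 1787. The mean level of the 38 genes had the same order of replicate numbers in WT and Rag2-/- but not in NSG libraries, a hint from the data and not from the design.

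The median against WT and against NSG stayed below 0 under every setting tried, from -0.25 to -0.089 and from -0.26 to -0.047 with each library left out. That of NSG against WT ranged from -0.13 to 0.096, was 0.014 without the lowest library of each host and -0.15 with the split as a factor. The median SD ranged from 0.14 to 0.21 in WT, 0.21 to 0.31 in Rag2-/- and 0.16 to 0.34 in NSG libraries.

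Log2 fold changes of 37 gene and comparison pairs printed above were recomputed, and 32 kept their sign under every setting. Against WT, the values with each library left out ran from -0.25 to 0.024 for Ifit3, -0.19 to 0.031 for Mx1, -0.092 to 0.013 for Samhd1, -0.054 to 0.075 for Trim30a and -0.037 to 0.14 for Ifih1. Trim30a was also -0.0088 with median ratio scaling, -0.0033 with voom and -0.15 with the split as a factor, and Ifih1 -0.082 with the split. The cause was not tested.

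Each host had 4 libraries, and SEs ran from 0.08 to 0.33 on the log2 scale.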
